A study of Mus musculus with 7 samples.

Results

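Long intergenic noncoding RNA (lincRNA) loci are stretches of the genome, away from coding genes, from which long RNAs without a coding sequence are thought to be transcribed. The Agilent mouse array used here carried 16251 probes of 60 bases whose descriptions name such a locus, and these covered 4622 loci, each a genomic interval with a strand, on the mm9 build. Loci were selected on signal: a locus was followed when at least 1 of its probes was well above background, by the scanner's own flag, on at least 3 of the 7 arrays. That rule kept 2501 of the 4622 loci. It used signals in both tissues but no difference between them. A locus kept only through the tissue in which it is high had to differ in the flag, though not past the threshold used below.

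The tissue was forelimb of C57/Bl6 embryos taken at embryonic day 11.5, with no mutation or treatment in the labels. Microdissected apical ectodermal ridge (AER), a raised band of epithelium along the edge of the limb bud, was hybridised to 3 arrays, and surface ectoderm of the posterior limb, the control, to 4. Tissue of 2 to 3 mice went into each replicate and 75 ng of total RNA was labelled with Cy3. The p-values measure the spread between replicates, each taken to be a separate pool. Whether ectoderm replicates 2 and 4 are separate pools was not known, and counts with these averaged are given in the last section. A value below is the log2 of the processed spot signal minus the 75th percentile of that array, and a difference is the AER mean minus the ectoderm mean on that scale. Signals of different probes are not comparable with each other, because probes bind with different strength.

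The AER secretes fibroblast growth factors that keep the underlying mesenchyme growing and so drives outgrowth of the limb. LincRNAs are a mixed class: some act on genes near the place where they are made, some act elsewhere in the nucleus, some carry microRNAs within them, and some loci first annotated as noncoding turned out to encode very small proteins. A lincRNA locus is often transcribed close to a developmental regulator and can share its pattern of expression with that neighbour. The array's locus names give a strand, F for the forward and R for the reverse strand, and an interval can be present on either or on both.

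The probe sequences below are those on which the largest differences rest, printed 5′ to 3′ in the sense of the locus. The first pair lies in 1 interval of chromosome 10 that is printed on both strands. Capitals mark the 44 bases over which these probes are exact complements of each other.
Forward-strand probe, chr10:69682222-69682281 (mm9, + strand): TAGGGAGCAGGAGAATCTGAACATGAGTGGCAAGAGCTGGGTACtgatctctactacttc
Reverse-strand probe, chr10:69682206-69682265 (mm9, - strand): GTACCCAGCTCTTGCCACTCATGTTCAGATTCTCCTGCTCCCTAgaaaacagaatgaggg
The forward probe differed between tissues by -6.66 and the reverse probe by -0.17 (limma, adjusted p = 0.000108 and 0.586 over all probes). Another forward probe of the same interval overlaps the array's probe for Mrln, the gene of myoregulin, a very small protein of the muscle sarcoplasmic reticulum. Capitals mark the 37 bases that the locus probe and the Mrln probe share.
Locus probe, chr10:69682342-69682401 (mm9, + strand): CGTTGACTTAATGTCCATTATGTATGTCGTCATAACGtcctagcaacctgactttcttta
Mrln probe, chr10:69682319-69682378 (mm9, + strand): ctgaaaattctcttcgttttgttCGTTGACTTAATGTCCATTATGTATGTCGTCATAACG
The next sequences are the tested probes of the pair of loci with the largest rise in the AER, which are shown in lower case throughout because nothing in them was singled out.
Chromosome 3 locus probe, chr3:37891481-37891540 (mm9, + strand): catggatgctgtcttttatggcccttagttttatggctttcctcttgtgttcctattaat
Chromosome 17 locus probe, chr17:80144297-80144356 (mm9, + strand): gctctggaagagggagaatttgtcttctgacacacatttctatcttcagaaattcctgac
The last sequence is the tested probe of a locus near Il17a, which is described further on.
Locus near Il17a, chr1:20672129-20672188 (mm9, + strand): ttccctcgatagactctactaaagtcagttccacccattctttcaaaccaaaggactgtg

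LincRNA probes were dimmer than coding probes: 31.8% of them passed the background rule, against 67.4% of 26389 probes of coding transcripts. Of the 2501 loci kept, 1918 were above background on all 7 arrays and 152 on exactly 3. Among the 2121 loci left out, the best probe was above background on 2 arrays for 255 loci, on 1 array for 537 and on none for 1329. The loci just inside the threshold and those just outside it were thus 152 and 255 in number. No ectoderm array was above background for 40 of the kept loci and no AER array for 24. In the comparison below (limma, adjusted p below 0.05), 17 of those 40 were called higher in the AER. Of those 24, 17 were called lower. For such loci a fold is given as at least a value, with each array of the dim group set to the higher of its own signal and the dimmest signal called above background on that array.

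The microdissection was checked with genes that mark the tissues. Of 23 known AER genes measured, 18 were higher in the AER and none was lower, and Fgf8, the main growth factor of the ridge, differed by 7.01 (limma, adjusted p = 0.00129). Pan-epithelial genes were higher for 16 of 20, with a median difference of 1.74 and none lower. Epidermal genes were higher for 11 of 14 and lower for 1. Limb mesenchyme genes were lower in the AER for 14 of 16 (median -2.41), with a mean list level from 0.70 to 1.25 in the AER arrays and from 4.23 to 4.83 in the ectoderm arrays. Muscle genes were lower for 11 of 11 (median -5.18), with list levels from -3.91 to -2.51 against 0.94 to 2.07, and Des and Msc were above background on no AER array. Endothelial genes were lower for 1 of 7, no macrophage (5) or erythroid (6) gene passed, and neural crest genes were higher for 2 of 6. Ectoderm replicate 3 stood apart from the other ectoderm arrays: it was the highest of the 4 for 18 of the 23 AER genes, with Fgf8 at 2.20 against -2.33 to -1.40 in the others, and the lowest for 10 of the 11 muscle genes. Correlations across genes were 0.980 to 0.988 within the AER, 0.985 to 0.995 within the ectoderm and 0.946 to 0.968 between them.

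A total of 251 lincRNA loci differed between AER and ectoderm at an adjusted p below 0.05, of which 146 were higher in the AER (5.84%) and 105 were lower (4.20%). This was 10% of the loci tested, below the 15.7% of all 20829 features and the 17.9% of 13602 coding genes called in the same fit, in which 7.03% of all features were called higher and 8.66% lower. The AER and ectoderm values did not overlap for 467 loci, or 18.7%, against 30.4% of all features. A change of at least 2-fold was passed by 75 higher and 61 lower loci, or 5.44%, against 9.48% of all features. The size of the called differences had a median of 1.04 on the log2 scale, with quartiles of 0.84 and 1.59, and 24 loci lay below -2 while 11 lay above 2. Among all loci tested the median difference was -0.02, and among all features it was -0.08. Many loci overlap on the same strand, and merging them left 1954 regions, of which 133 held a higher locus and 91 a lower one. Direction depends on the reference level: a 75th percentile taken only over probes detected on all 7 arrays moved the median of all features by 0.11 and gave 222 higher and 76 lower loci, and centring on the pan-epithelial genes moved it by -1.55 and gave 6 and 2337. Without ectoderm replicate 3 the counts were 132 higher and 84 lower loci. They were 86 and 69 without ectoderm replicate 2, 92 and 62 without ectoderm replicate 4, and 86 and 145 without AER replicate 1. Within the slide row that held AER replicate 1 and ectoderm replicates 1 to 3 the calls were 26 higher and 28 lower, and within the other row, which held AER replicates 2 and 3 and ectoderm replicate 4, they were 39 and 47. Each of these fits has 1 array in an arm, so its spread comes from the other arm alone.

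The lower share of calls was seen at each range of probe signal. When all features were put into quartiles by their mean signal, 9.76% of 1270 loci and 27.8% of 2329 coding genes of the dimmest quartile were called. The shares were 11.1% and 23.8% in the second quartile, 10.5% and 15.1% in the third, and 5.30% and 9.75% in the brightest, which held 132 loci. Restricted to features above background on all 7 arrays, 171 of 1918 loci (8.92%) were called, with 106 higher and 65 lower, against 15.2% of coding genes. No test was made of these shares, since loci and genes are not replicates of a condition.

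**Figure D1:**
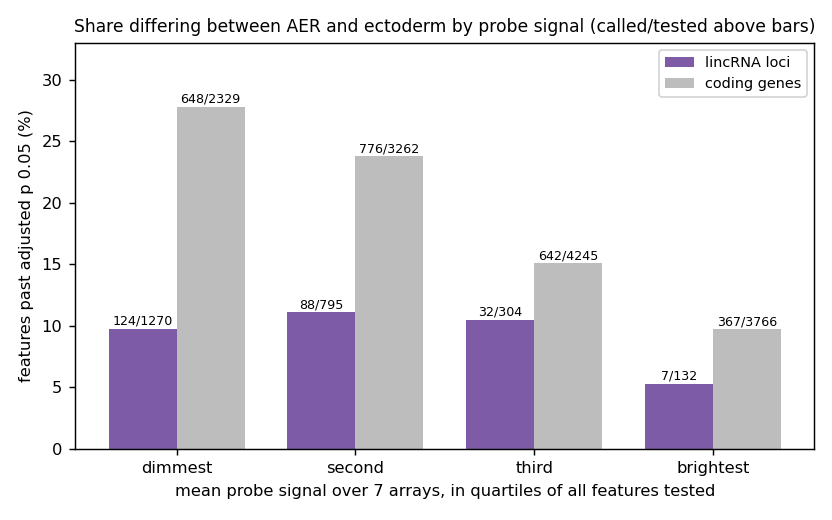
Percent of lincRNA loci and of coding genes past an adjusted p of 0.05 (vertical axis) in quartiles of all tested features ranked by mean probe signal over the 7 arrays (horizontal axis), with called over tested numbers above the bars. The lincRNA share lies below the coding share in each quartile, from 9.76% against 27.8% in the dimmest to 5.30% against 9.75% in the brightest.

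By fitted difference, the largest rise in the AER was at chr3:37797734-37891650 on the forward strand, in the gene-poor stretch 278 kb from the Gm5148 probe. Its 3 AER arrays read -0.27, -0.27 and -0.10 and its 4 ectoderm arrays read -4.85, -5.02, -4.38 and -4.97, none of the latter above background. The AER arrays lay together and far above every ectoderm array, a rise of at least 14.5-fold (limma difference 4.59, SE 0.185, adjusted p = 7.36e-06). The rank rests on dim ectoderm signals: with normexp background correction, which draws dim signals together, the rise was 2.40, below the 2.44 of the locus chr13:23487906-23488198. The other 2 kept probes of the locus differed by 2.46 and 4.83. Gm5148 itself rose by 1.73, which was less than the locus (difference of differences 2.86, adjusted p = 0.000138).

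The second by fitted difference was chr17:80133213-80144417 on the forward strand, 37.8 kb from Cyp1b1, a cytochrome P450 gene whose own difference of 0.45 did not pass (adjusted p = 0.317). The AER arrays read -1.12, -1.44 and -1.12, and the ectoderm arrays, again none above background, read -5.17, -6.06, -4.36 and -5.81. The groups were far apart, with a rise of at least 7.17-fold (limma difference 4.12, adjusted p = 0.000164). That bound lies below the 8.05-fold of the locus described next, as did its rise with normexp, 1.57 against 2.17. A probe of the transcript CJ221686, which lies inside the interval on the same strand and shares 3 bases with the tested probe, differed by 4.01.

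At chr2:128211990-128215223 on the reverse strand, 227 kb from Anapc1, the AER arrays read 0.11, -0.26 and 0.17 and the ectoderm arrays -2.87, -3.02, -3.28 and -2.85. All 7 arrays were above background here, and the rise was 8.05-fold (difference 3.01, adjusted p = 2.65e-05). A second reverse-strand locus of the same stretch, chr2:128137419-128141735, rose by 2.05, or at least 2.06-fold, and its 2 other probes differed by 2.80 and 2.96. The coding genes nearest to this pair, Anapc1 of the anaphase-promoting complex and the cell-death gene Bcl2l11, differed by -0.35 and 0.22 and did not pass.

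A pair of short forward-strand loci near Abt1, a factor of basal transcription, rose by 2.61 (chr13:23487906-23488198) and 2.43 (chr13:23488256-23488626). The first read 3.03, 2.82 and 2.46 in the AER and -0.25, -0.10, 1.28 and -0.29 in the ectoderm. Ectoderm replicate 3 was the highest ectoderm array at both, and neither locus overlapped between the groups. The reverse-strand locus chr3:51804655-51805883, 103 kb from Maml3, rose by 2.42 with its other probes at 2.63 and 2.72. Maml3, a co-activator of Notch signalling, rose by 1.64, and the locus did not differ from it past the threshold (0.79, adjusted p = 0.407).

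The NEAT1 locus, on the reverse strand of chromosome 19 at 5842306 to 5845476, gives an RNA around which nuclear paraspeckles are built. It read -2.06, -0.48 and -2.70 in the AER and -3.49, -4.23, -4.66 and -3.93 in the ectoderm. AER replicate 2 was clearly the highest array and the AER spread was wide, and the rise of 2.33 passed (adjusted p = 0.0141). Its 4 other probes differed by 1.19 to 2.50. The locus chr2:175898018-175930211 on the reverse strand near Gm14391 rose by 2.48, or at least 2.27-fold (adjusted p = 0.0232). That call was lost when AER replicate 1 or 2 or ectoderm replicate 2, 3 or 4 was left out (adjusted p from 0.0505 to 0.0708). With normexp these 9 rises ranged from 0.47 to 2.44, and the calls of the locus near Gm14391 (0.59, adjusted p = 0.122) and of that near Bcl2l11 (0.47, adjusted p = 0.109) were lost. Centred on the pan-epithelial genes, the NEAT1 locus differed by 0.78 (adjusted p = 0.0948), the locus near Maml3 by 0.87 (adjusted p = 0.0522), that near Gm14391 by 0.92 (adjusted p = 0.13) and that near Bcl2l11 by 0.50 (adjusted p = 0.195), and these calls were lost.

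The largest fall by fitted difference was at chr10:69669025-69686275 on the forward strand, the interval that overlaps Mrln. The AER arrays read -5.10, -3.86 and -2.97 and the ectoderm arrays 2.42, 2.74, 1.77 and 2.58. Only 1 of the 3 AER arrays was above background while every ectoderm array was, and the difference was -6.35 (SE 0.458, limma adjusted p = 5.45e-05), or -4.58 with normexp. Its 4 other probes differed by -6.66 to -5.71. The nested forward-strand locus chr10:69679644-69682458 differed by -6.24 and the Mrln probe by -6.72. Ccdc6, the nearest coding gene by probe position at 27.1 kb, differed by -0.20 and did not pass.

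A pair of overlapping reverse-strand loci on chromosome 8 lay 23.3 and 14.9 kb from Trim61. The locus chr8:67550064-67560987 fell by 4.54, or at least 16.9-fold, and chr8:67552315-67561235 fell by 4.09, from 2.30 to 2.42 in the ectoderm to -1.07, -2.49 and -1.59 in the AER. A probe of the transcript ENSMUST00000142822 inside both intervals differed by -4.22. RefSeq (GRCm38.p6) lists Apela, which encodes a small secreted peptide hormone, as the gene next to Trim61. Whether Apela lies inside these mm9 intervals was not looked up, since the builds differ. A forward-strand pair on chromosome 3 near Mttp, chr3:137742666-137744470 and chr3:137736327-137752677, differed by -4.25 and -3.98, falls of at least 7.89-fold and 8.30-fold, while Mttp differed by 0.67 and did not pass. The forward-strand locus chr16:77670599-77691642, 575 kb from Usp25, fell by 4.25, or at least 7.79-fold, while Usp25 rose by 0.95.

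No AER array was above background at 4 of these 7 falls, and the muscle and mesenchyme lists given above were lower in the same arrays. Their part in these falls was not tested. A bulk sample cannot tell fewer cells of a type from less RNA per cell. With normexp the 7 falls ranged from -4.58 to -1.39 and kept their calls. The tested probes of the nested chromosome 10 loci overlap each other, as do those of the pair near Mttp. The 7 falls are thus not separate observations.

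**Figure D2:**
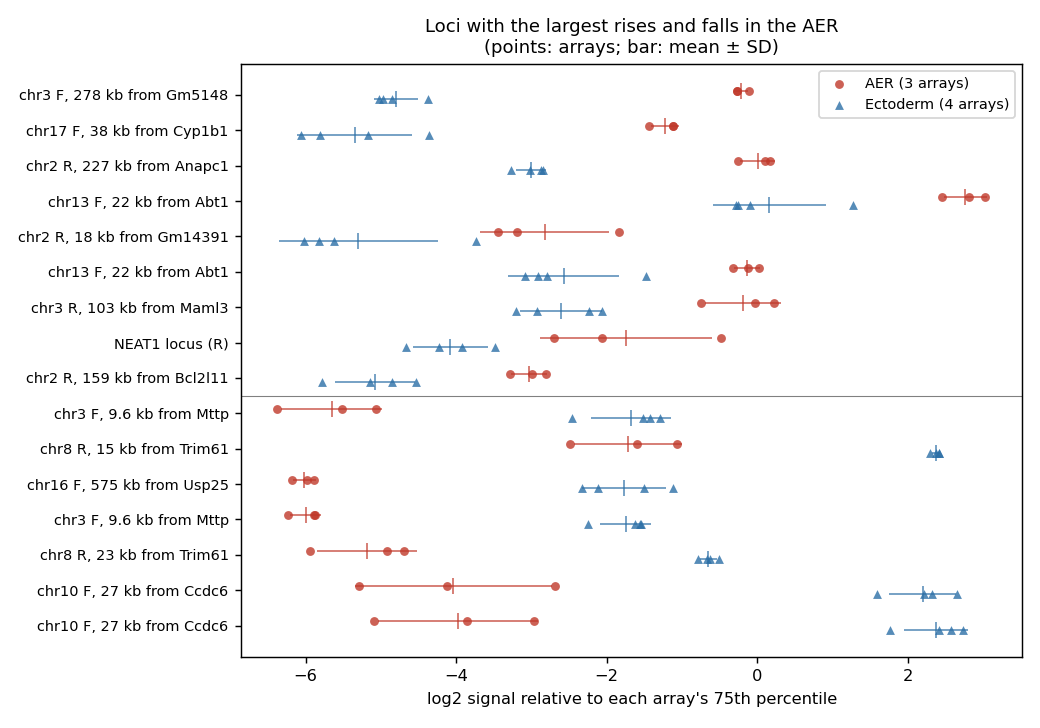
Values by array (horizontal axis, log2 signal relative to the array's 75th percentile) of the 9 loci described above with the largest rises (upper rows) and the 7 with the largest falls (lower rows) in the AER, named by chromosome, strand and nearest coding gene. Circles are the 3 AER arrays and triangles the 4 ectoderm arrays, with a bar for mean ± SD; the tissues do not overlap in any row, which the choice of rows required.

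A list of 138 limb genes was used to ask how loci beside genes of limb patterning behaved. Such a gene was the nearest coding probe of 54 tested loci, beside 24 genes, and 4 of these loci were higher, 8 were lower and 42 did not pass (22.2% called, against 10% of all loci and 15.7% of all features). Most of the called loci overlap another called locus beside the same gene. The share thus counts some regions repeatedly, and no test was made of it.
Of the lower loci, 3 lay beside Tbx5, the T-box gene that starts the forelimb bud. The reverse-strand locus chr5:120269342-120279542 read -0.39, -0.70 and -0.55 in the AER and 0.95, 0.60, 0.55 and 0.59 in the ectoderm, a difference of -1.22 (adjusted p = 0.00125). Its other kept probes differed by -0.87 and -0.13, and with the mean of its kept probes the difference was -0.74 and the call was lost (adjusted p = 0.0594). Its forward strand fell by 1.00 and the overlapping reverse-strand locus chr5:120253747-120281800 by 1.14, from 53.1 to 58.1 kb away from the Tbx5 probe. Tbx5 fell by 1.52, and none of the 3 loci differed from it past the threshold (adjusted p from 0.348 to 0.501). The calls of the forward-strand locus (adjusted p from 0.0776 to 0.0911) and of the second reverse-strand locus (from 0.0568 to 0.0742) were lost without ectoderm replicate 1, 2 or 4, and the former also without ectoderm replicate 3 and with normexp background correction (-0.47, adjusted p = 0.0608).

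A lower pair lay beside Lmx1b, the LIM homeobox gene of dorsal limb identity, at 5.90 and 6.79 kb. The forward-strand locus chr2:33500594-33501874 read 4.35, 4.36 and 3.40 in the AER and 6.22, 5.28, 4.99 and 4.82 in the ectoderm and fell by 1.29 (adjusted p = 0.0489). Its neighbour chr2:33496712-33501183 fell by 1.35 (adjusted p = 0.0376), with ectoderm replicate 1 at 2.08 and the other ectoderm arrays from 0.50 to 0.68. Lmx1b itself differed by -0.52 and did not pass. The first call was lost whichever array was left out (adjusted p from 0.052 to 0.134), and the second without AER replicate 1, 2 or 3 or ectoderm replicate 2 (from 0.061 to 0.096).

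Among the 4 higher loci, chr3:37543528-37546874 on the forward strand lay 3.39 kb from Spry1, a feedback inhibitor of fibroblast growth factor signalling. It read -1.75, -2.20 and -1.79 in the AER and -2.89, -3.43, -2.43 and -3.10 in the ectoderm, a rise of 1.05 (adjusted p = 0.0212), while its other probes differed by 2.98 and 3.43. Spry1 rose by 2.00. Without AER replicate 1 or 3 or ectoderm replicate 4 the adjusted p of the locus was 0.0656, 0.0629 and 0.0631, and with normexp the rise was 0.53 (adjusted p = 0.0918). A forward-strand locus 49.8 kb from the connexin gene Gja1, chr10:56151791-56184966, rose by 1.00 (adjusted p = 0.0127), and Gja1 differed by 0.79 without passing (adjusted p = 0.118). A reverse-strand pair 36.9 and 37.1 kb from Smad7, an inhibitor of TGF-beta and BMP signalling, rose by 1.34 and 1.33, with the first at 2.13, 2.10 and 1.86 in the AER and 0.45 to 1.06 in the ectoderm. Smad7 rose by 1.13. These 4 rises hold relative to the 75th percentile, and with values centred on the pan-epithelial genes the loci differed by -0.55 to -0.22 and did not pass.

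Over all loci, the nearest coding probe was a median of 31.0 kb away, and 2088 loci had a neighbour that was itself tested, among 1069 genes. Of the 200 called loci in this set, 40 had a neighbour called in the same direction (20%; some of these loci share a neighbour) and 5 in the opposite one. Among the 1888 loci not called, 315 (16.7%) had a called neighbour in either direction. Across loci the differences of locus and neighbour had a Pearson correlation of 0.244, in which neighbours that serve several loci are counted repeatedly.

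Over all 298 pairs within 5 kb the correlation was 0.745, with 0.700 for pairs on the same strand and 0.794 on opposite strands. These values rested on 3 loci that share 1 neighbour: over the other 295 pairs the correlation was 0.371, with 0.508 on the same strand and 0.162 on opposite strands. It was 0.130 from 5 to 50 kb, 0.245 from 50 to 200 kb and 0.128 beyond. Of the 29 called loci in these 295 pairs, 7 had the neighbour called in the same direction and none in the opposite one. On the same strand this was 7 of 18, where 9.52% of the uncalled loci had a called neighbour. Besides the Spry1 locus, these pairs were the loci near Rnf150 (-0.95; gene -1.32), Micos10 (-0.88; -0.85), Nab1 (0.84; 1.20), Cecr2 (0.97; 1.14) and a pair near Atxn3 (0.84 and 0.93; 1.03). Whether such a same-strand pair is read from 1 RNA or from separate ones was not tested.

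In the test of the difference itself, 267 of 2088 loci (12.8%) differed from their neighbour in how AER and ectoderm compared. Of the 200 called loci, 70 differed from their neighbour past the threshold, and for 58 of these the neighbour was not called. The remaining 197 of the 267 were loci that were not called themselves. How many of these lay beside a called coding gene was not counted.

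**Figure D3:**
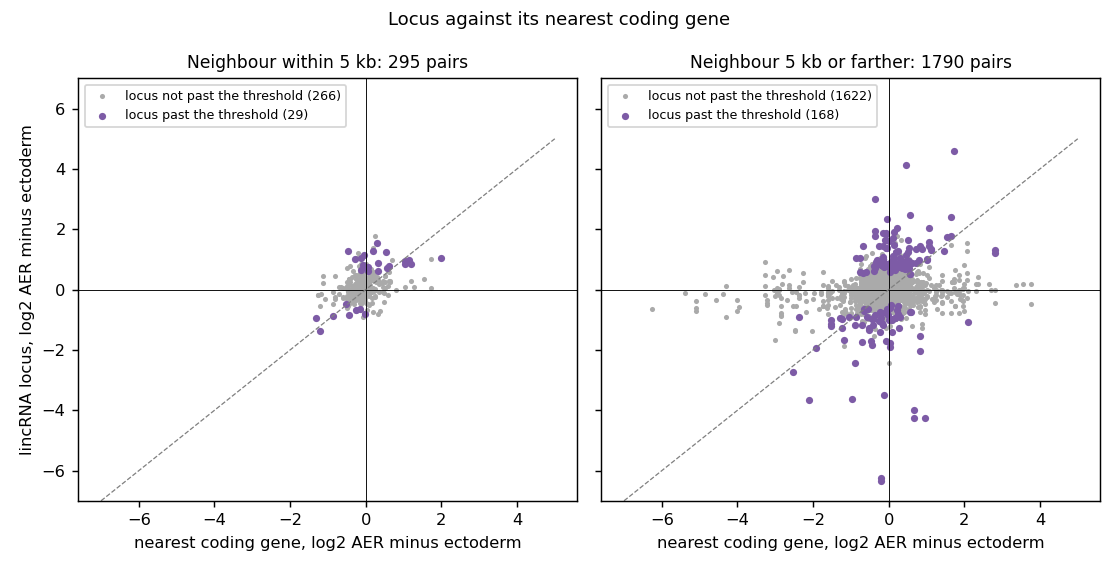
Difference (log2 AER minus ectoderm) of each lincRNA locus (vertical axis) against that of its nearest coding gene (horizontal axis) for 295 of the 298 pairs within 5 kb (left) and 1790 farther pairs (right); purple points are loci past an adjusted p of 0.05 and the dashed line marks equal differences. The left panel holds 29 called loci and the right panel 168.

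Both strands were tested for 435 intervals. The strands' differences had a correlation of 0.244 across intervals, and a rank correlation of 0.140. In the test of the per-array difference between strands, 19 intervals (4.37%) differed. This count rested on the arrays used: it was 2 without AER replicate 2 or without ectoderm replicate 2, 5 without ectoderm replicate 3 or 4, 11 without AER replicate 3, and 27 without AER replicate 1. Exactly 1 strand was called for 63 intervals and both for 5, always in the same direction. By the tested probes, no interval had its strands called in opposite directions. By other probes, chr11:87841800-87858725 near Srsf1 did: of a pair of overlapping probes that are complementary over 44 bases, the forward one differed by -0.74 (limma over all probes, adjusted p = 0.0123) and the reverse one by 2.18 (adjusted p = 0.00983), while the tested reverse probe differed by 0.55 and did not pass. The intervals called on both strands included those beside Tbx5, chr4:129497990-129515290 near Ptp4a2 (0.82 and 1.01), chr11:96111499-96126224 near Hoxb9 (1.20 and 1.32) and chr3:87757295-87774970 (-1.88 and -1.04). Forward-strand values near Hoxb9 varied by probe. Another forward probe of that interval differed by 3.35, while the overlapping forward-strand locus chr11:96112907-96125798 differed by -0.435 and did not pass (adjusted p = 0.301).

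The smallest p was that of the Mrln interval on chromosome 10. Its forward strand fell by 6.35, while its reverse strand read -2.61, -2.97 and -3.34 in the AER and -2.91, -2.77, -2.82 and -2.74 in the ectoderm. The reverse strand overlapped between the tissues and the strands differed by -6.19 (adjusted p = 0.000433). The other 4 named intervals were less far apart. At chr9:118291593-118324230, 80.3 kb from Eomes, the forward strand rose by 1.11 and the reverse strand differed by -0.58 without passing (strand difference 1.69, adjusted p = 0.0151). Centred on the pan-epithelial genes the forward strand differed by -0.44. At chr15:73227424-73257474 near Ptk2 neither strand passed alone (-0.61 and 0.82), and the strands differed by -1.43 (adjusted p = 0.0226). The remaining pair, chr12:110896603-110940553 and chr12:110870903-110891628, lies in the imprinted cluster described next. Over 183 pairs of opposite-strand probes whose positions overlap by at least 30 bases, 182 of which were exact complements there, the differences of the 2 strands had a correlation of 0.241.

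**Figure D4:**
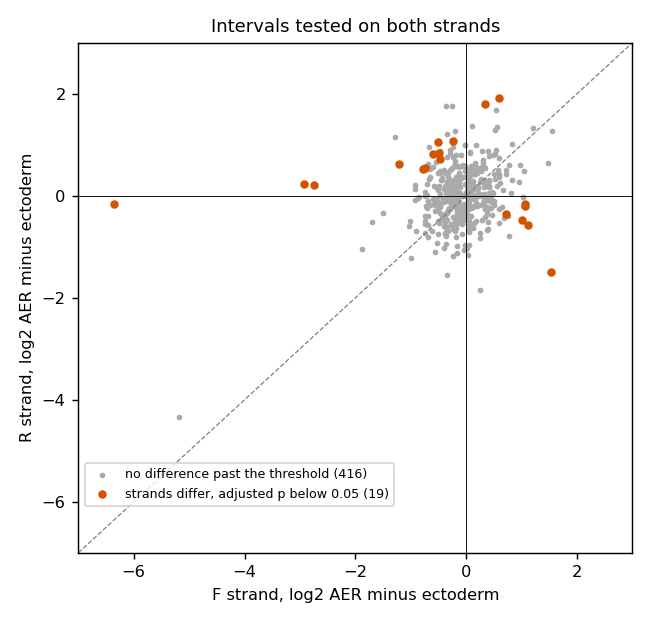
Difference (log2 AER minus ectoderm) on the forward strand (horizontal axis) and on the reverse strand (vertical axis) of 435 intervals; orange points are the 19 whose strands differed at an adjusted p below 0.05 and the dashed line marks equal differences. The point at the far left is the Mrln interval (-6.35 and -0.17).

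The Dlk1-Dio3 cluster on chromosome 12 was looked at after its values had been seen. It is an imprinted region that makes the noncoding RNAs Meg3 and Mirg, and many small RNAs, from the maternal chromosome, and the coding genes Dlk1, Rtl1 and Dio3 from the paternal one. Between the Dlk1 and Dio3 probes (110698502 to 111518851) the array has 14 forward-strand loci, of which 13 were tested: 7 were lower in the AER, none was higher, and 6 did not pass, where 8.66% of all features and 4.20% of all loci tested were lower. All 29 kept forward-strand probes had a negative difference, with a median of -2.06. These loci fall into 5 merged regions and so are not 13 separate observations. Of 5 reverse-strand loci tested, 1 was lower and none was higher.

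The forward-strand locus chr12:110842154-110883594 read 0.13, 0.01 and 0.47 in the AER and 2.52, 1.70, 2.25 and 1.97 in the ectoderm, a difference of -1.91 (adjusted p = 0.000638). At chr12:110894095-110899517 the values were -1.17, -0.98 and -0.99 against 1.57, 1.25, 1.28 and 1.19, a difference of -2.37 (adjusted p = 3.56e-05). Neither overlapped between tissues, and the arrays of each tissue lay close together. The falls at chr12:110896603-110940553 (-2.75) and chr12:110870903-110891628 (-2.93, at least 5.47-fold) were on the forward strand, while their reverse strands differed by 0.21 and 0.23 and did not pass. The strands differed by -2.96 and -3.16 (adjusted p = 0.0041 and 0.0151). The reverse locus of the second interval has other kept probes, at -2.17 and -2.13, which go against its tested probe. The falls at chr12:110909258-110913909 and chr12:110842149-110845695 were -2.09 and -1.77. That at chr12:110973190-110987668 was -1.01 (adjusted p = 0.0334) and lost its call without AER replicate 1 or any 1 ectoderm replicate (adjusted p from 0.0545 to 0.0790). The called reverse locus, chr12:110845020-110850870, fell by 2.29, or at least 3.43-fold.

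Of the named genes of the cluster, Dlk1, Meg3, Mirg and Dio3 were lower as well, while B830012L14Rik, whose probe lies inside the forward interval chr12:110896603-110940553, differed by 0.08 and did not pass (adjusted p = 0.837). Dlk1, a Notch-like membrane protein, fell by 4.31, from 6.39 to 6.80 in the ectoderm to 1.60, 2.73 and 2.70 in the AER. Meg3 read -1.56, 0.90 and -1.26 in the AER and 1.87, 1.78, 1.14 and 1.83 in the ectoderm, with AER replicate 2 far above the other AER arrays, and fell by 2.29 (adjusted p = 0.0215). Its call was lost without AER replicate 1 or 3 or ectoderm replicate 1, 2 or 4 (adjusted p from 0.0505 to 0.0722). Mirg fell by 1.05 (adjusted p = 0.035), which was lost under each array left out except AER replicate 2 (adjusted p from 0.0513 to 0.0898), and Dio3 fell by 1.61. The mesenchyme and muscle lists moved the same way between these arrays, and their part was not tested.

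**Figure D5:**
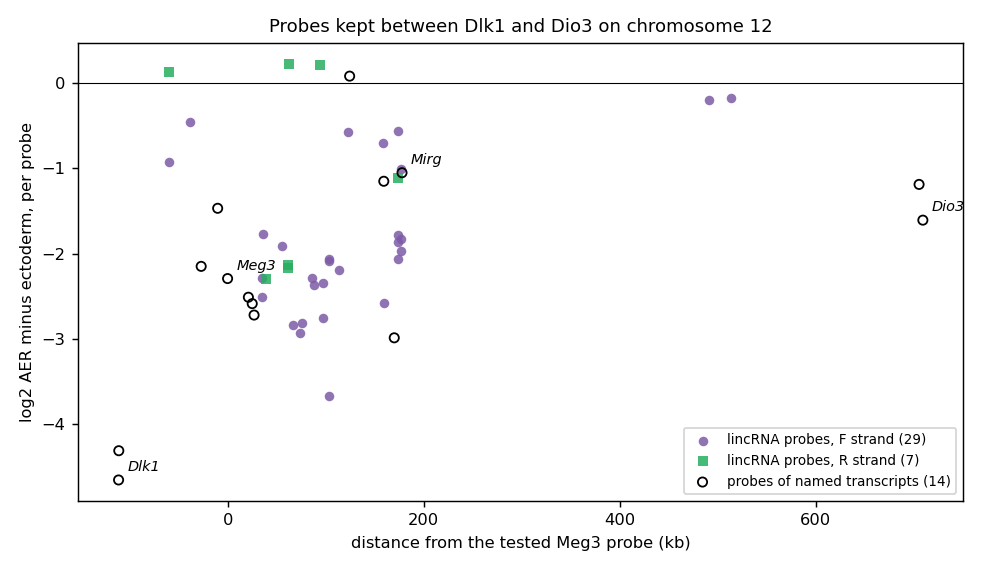
Difference per kept probe (vertical axis, log2 AER minus ectoderm) against distance from the tested Meg3 probe (horizontal axis, kb) between Dlk1 and Dio3. Filled circles are 29 forward-strand and squares 7 reverse-strand lincRNA probes and open circles are probes of named transcripts; all forward-strand lincRNA probes lie below 0.

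Long noncoding RNAs with established names were followed through 2 routes. From a list of 65, the array had 30 outside the lincRNA probes and 19 were tested: 3 were higher in the AER, 5 were lower and 11 did not pass, where 7.03% of all features were higher and 8.66% lower. Rmst, a noncoding RNA of the developing nervous system, read -2.76, -1.15 and -2.22 in the AER and -6.28 to -5.93 in the ectoderm, where no array was above background, a rise of at least 4.08-fold (difference 4.09, adjusted p = 9.98e-05). Dlx4os, antisense to the homeobox gene Dlx4, rose by 2.08 and Airn by 0.61, and both calls depended on single arrays: Dlx4os was lost without AER replicate 1 or 3 or ectoderm replicate 2, 3 or 4, and Airn under each array left out except AER replicate 3. With pan-epithelial centring Airn differed by -0.95 and Dlx4os by 0.52, and with normexp Dlx4os differed by 0.76; neither Dlx4os value passed (adjusted p = 0.355 and 0.0724). Dnm3os, which carries microRNAs of mesenchyme, fell by 1.58 and Foxd2os by 2.58, or at least 3.61-fold. H19, an abundant imprinted RNA of embryonic tissue, fell by 1.22 (adjusted p = 0.00219), from 8.86 to 9.14 in the ectoderm to 7.58, 8.10 and 7.55 in the AER; with quantile normalization the fall was 0.82 and did not pass (adjusted p = 0.102).

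The array also has 15 lincRNA loci named other than by position in this way, and 10 of them were kept. The H19 locus fell by 1.39 (adjusted p = 0.00723), with its 4 other probes from -1.49 to -1.20, and the fall was 0.80 (adjusted p = 0.194) in the authors' deposited values. The locus at chr17:12941161-12944859, 69.4 kb from Igf2r, rose by 1.00 (adjusted p = 0.0259), and lost its call without ectoderm replicate 2, 3 or 4 (adjusted p from 0.0543 to 0.0739), while with pan-epithelial centring it differed by -0.55. The Airn probe lies inside this interval, so this rise and that of Airn given above do not come from separate regions. The NEAT1 locus was described above. The other 7 did not pass: NEAT2, also called Malat1, differed by 0.94, XIST by 0.85, NRON by 0.40, TUG1 by -0.02, HOTAIR by -0.41, BRN1-A by -0.46 and KCNQ1ot1 by -0.46. At NEAT2, AER replicate 2 read 1.77 and the other AER arrays -0.12 and -0.61, against -0.74 to -0.49 in the ectoderm. AER replicate 2 was thus the highest array at NEAT1 and NEAT2 alike.

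Some further loci were chosen after their values had been seen, for the genes that lie with them. The reverse-strand locus chr1:195332659-195335997 holds the probe of Mir205hg, the host of miR-205, a microRNA of epithelia. It read 0.86, 0.75 and 0.79 in the AER and -1.93, -0.71, -1.05 and -0.59 in the ectoderm, a rise of 1.87 (adjusted p = 0.00356), and Mir205hg rose by 1.76. With values centred on the pan-epithelial genes the difference was 0.32 and did not pass (adjusted p = 0.28). An overlapping reverse-strand locus that also holds the Mir205hg probe, chr1:195327945-195336595, differed by 0.42 and did not pass (adjusted p = 0.103).
A forward-strand locus 8.57 kb from the homeobox gene Hlx, chr1:186560855-186563399, fell by 3.67, or at least 12.4-fold, from -1.07 to -0.86 in the ectoderm to -4.28, -5.05 and -4.50 in the AER. Hlx fell by 2.11, and the locus fell further (-1.56, adjusted p = 0.00329). The forward-strand locus chr4:114585803-114588898, whose interval holds the Foxd2os probe, fell by 2.09, or at least 3.63-fold. Its tested probe has the same sequence and position as the Foxd2os probe. This fall and that of Foxd2os given above are thus repeat readings of the same sequence. A reverse-strand locus 6.74 kb from Dgki, chr6:36790208-36792056, fell by 2.72, or at least 5.56-fold, and Dgki by 2.53. The forward-strand locus chr14:100858641-100878744, 608 kb from Klf12, fell by 2.44, or at least 3.79-fold, and Klf12 by 0.88.
The forward-strand locus chr1:20669157-20672643 lay 52.3 kb from Il17a, beside which RefSeq (GRCm38.p6) lists the noncoding RNA Lincmd1 and the muscle microRNA genes Mir206 and Mir133b. It read -5.94, -6.58 and -6.11 in the AER, where no array was above background, and -2.95, -3.31, -3.61 and -3.33 in the ectoderm, a fall of at least 2.69-fold (difference -2.91, adjusted p = 5.97e-05). Whether Lincmd1 lies inside that interval was not looked up.

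Several probes of a locus, and probes of named transcripts, gave a check on the measurement that the tested probe does not share. Of the called loci, 173 had other kept probes, and 338 of these 364 probes (92.9%) had the sign of the tested probe, against 69.8% at uncalled loci. By probe, 225 were called in the same direction and 1 in the opposite one. The call picks loci with differences that are large for their spread, whose signs turn less easily. The contrast with uncalled loci thus follows in part from the call itself. Some of the other probes also lie close beside the tested probe. A same-strand probe of a named transcript lay inside 377 tested loci. Its difference had a correlation of 0.774 with that of the locus (rank correlation 0.501), or 0.644 over the 310 loci whose probes did not overlap it. Of the 55 called loci among the 377, 47 shared the sign with that probe, 30 were also called there, and none was called there in the opposite direction. These counts include loci whose tested probe overlaps or repeats the transcript's probe, and no such counts are given for uncalled loci. At 24 loci the array prints the very same sequence a second time under a transcript's name, and those paired differences deviated by -0.61 to 0.48 with an SD of 0.25. The tested probes of higher, lower and uncalled loci all had a median GC content of 45.0%. The polyadenylation signal AATAAA, searched on the printed strand, was in 4.11% of the higher, 5.71% of the lower and 4.27% of the uncalled loci's probes, and in 3.92% of all lincRNA probes.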

How the data were processed

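The authors deposited 1 scanner file per array. Its processed signal is an intensity after background subtraction and detrending by Agilent Feature Extraction 10.7.3.1 and not scaled between arrays, per the file headers. The deposited files also hold the spot mean and local background intensity and other flags per spot, per the file headers. The authors' matrix is on a log2 scale with the same sorted values on every array, and limma is named, without a version, in the submitters' processing notes. All 7 arrays lay on 1 slide with 1 scan time. No spot was saturated, and the 75th percentile of signal was 341 to 563 in AER and 257 to 444 in ectoderm arrays.

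Control, uneven and outlying spots were left out, each array's 75th percentile was subtracted from the log2 signal, and a probe was kept when above background on at least 3 arrays. Each locus or gene was represented by its kept probe of highest mean. A spot left out leaves a missing value, and 4 tested loci lacked at least 1 array. AER was compared with ectoderm by limma 3.58.1 (lmFit and eBayes, two-sided, in R 4.3.3) over all 20829 features, with Benjamini-Hochberg adjustment and a threshold of 0.05, 5 residual degrees of freedom and 3.50 from the prior. Per-array differences between a locus and its nearest probe of a RefSeq coding transcript, and between the strands of an interval, were tested in the same way over 2088 pairs and 435 intervals. The script was tested on simulated data. Single probes were also fitted by limma over all 28282 kept probes with Benjamini-Hochberg adjustment, and calls by probe come from that fit. Shares and correlations over other kept probes, probes of named transcripts and overlapping opposite-strand probes were described without a test, the latter alternatives being added after the data had been seen. Probe positions and loci are on mm9, per the file headers; whether a probe lies in an exon was not looked up, since no mm9 genome was used here. Promoter and hairpin sequences of RefSeq (GRCm38.p6) that share at least 40 bases with a lincRNA probe checked the strand: 225 of 246 promoter matches and 12 of 12 hairpin matches read along the locus strand. Other steps ran in Python 3.11.15 with pandas 2.3.3, numpy 2.4.6 and, for the plots, matplotlib 3.10.9.

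Named loci are the 10 largest changes each way among loci past the threshold, at least 2-fold, detected on every array of the higher tissue and without overlap; called loci beside a listed limb gene; the 5 intervals with the smallest p between strands; their nearest coding genes; and listed noncoding RNAs past the threshold. Some loci that this rule names, and the pairs that hold some of them within 5 kb, are not reported here, while counts over all loci include them. Others are marked as chosen after their values were seen. The loci and lists were chosen with earlier results of these data known. Alternatives were normexp (offset 50), quantile normalization, other reference levels, the authors' values, other filters, slide row and replicate blocks, each array left out, and other neighbour rules. Replicate numbers were not taken to pair the arrays.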

Additional observations from a re-analysis of the deposited data

Results flagged for a closer look

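Among 60 named results with all 4 ectoderm arrays, 7 had an ectoderm array that lay far from the other 3, where chance alone gives about 1 in 20, and overlapping loci share RNA. Ectoderm replicate 1 was the high one at 3: the Lmx1b locus chr2:33496712-33501183 (2.07, others 0.50 to 0.68), the Tbx5 reverse-strand locus chr5:120269342-120279542 (0.95, others 0.55 to 0.60) and the imprinted-cluster locus chr12:110909258-110913909 (0.54, others -0.09 to 0.00). Ectoderm replicate 3 was apart at another 3, high at the Abt1 locus chr13:23487906-23488198 (1.28, others -0.28 to -0.10) and low at the Mttp locus chr3:137742666-137744470 (-2.25, others -1.63 to -1.54) and at Meg3 (1.14, others 1.78 to 1.87). Ectoderm replicate 4 was high at the reverse-strand locus chr12:110845020-110850870 (-2.12, others -3.24 to -3.20).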

How the results depend on the processing

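All values are log2 differences or counts of called loci, and 54 of 60 named loci and noncoding RNAs were called. Leaving out 1 array at a time gave 154 to 246 called loci (251 with all arrays), 86 to 162 of them higher and 62 to 145 lower, 141 to 237 loci that differed from their neighbour (267) and 2 to 27 intervals that differed between strands (19). Of the 54 calls, 42 were kept in each of these fits and none turned. Total, higher and lower calls were 54, 26 and 28 within slide row 1, 86, 39 and 47 within row 2, 162, 96 and 66 with ectoderm replicates 2 and 4 averaged, 136, 75 and 61 at 2-fold, and 2343, 6 and 2337 with pan-epithelial centring. The higher count was 222 with a 75th percentile taken only over probes detected on all 7 arrays; the lower count was 65 with no filter and 69 with loci above background on all 7 arrays, which left 170 loci that differed from their neighbour. The strand count was 38 with normexp, 7 with the slide row as a block and 4 with the replicate block. Whether replicate numbers pair the arrays was not settled. Deviations from the tissue mean correlated at -0.03, 0.19 and 0.13 between the AER and ectoderm arrays of number 1, 2 and 3. AER replicates 2 and 3 correlated best with the ectoderm array of their own number, and AER replicate 1 did not. With the replicate block 195 loci were called, 108 higher and 87 lower, and 186 differed from their neighbour. The share of called loci with a neighbour called alike was 17.0% to 22.2% under other neighbour rules (20% as reported). The authors' values gave 169 higher and 84 lower, the same as normexp with quantile normalization. Pan-epithelial centring turned the Gja1 (-0.55), Spry1 (-0.50) and both Smad7 loci (-0.23 and -0.22), the Eomes forward strand (-0.44), the Ptk2 reverse strand (-0.73), the Igf2r locus (-0.55), Airn (-0.95) and the reverse strands of chr12:110896603-110940553 (-1.34) and chr12:110870903-110891628 (-1.32). The remaining turned signs were of strands that did not pass: the first of these was -0.44 within row 2 and from -0.12 to 0.42 with 1 array left out, and the second -0.15 with normexp, -0.087 when quantile normalization was added, -0.087 in the authors' values, and -1.36 with the mean of kept probes. The Mrln reverse strand was 0.22 within row 1 and from -0.35 to 0.017 with 1 array left out, and the Eomes reverse strand 0.08 within row 1. The causes were not tested. With normexp, which draws dim signals together, 27 of the 54 called differences were smaller by over 1.5 times.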
